A study of Mus musculus with 12 samples.

Results

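Adh1, Ampd1, Rgcc, Slc15a2 and Pmel are 5 protein coding genes taken by name from the 32285 genes of a table of transcript levels in mouse naive CD4+ T cells. They were chosen from the measured values, because each was among the genes with the largest drops in level in Mettl3 knockout or Nudt21 knockout cells at 0 h. The choice therefore used the values of both knockout comparisons, which are therefore given for these 5 genes as a description. No p-value is given for them there, and where a gene is said to be called, this says only that it passed the threshold used for all genes. All 5 were among the 12511 genes that passed the filter on low values, at least 1 FPKM (fragments per kilobase of transcript, scaled to the mapped fragments of the library) in at least 2 libraries. RNA sequencing had been run on 12 libraries of naive CD4+ T cells. The cells came from C57BL/6 mice, where spleen and lymph nodes were the source of the sort. Cells taken after 48 h were kept in culture medium with antibodies against CD3 and CD28, which trigger the T cell receptor and its costimulator. A set named after Mettl3 held wild type cells at 0 h (3 libraries), wild type cells after 48 h (3) and Mettl3 knockout cells at 0 h (2, numbered 1 and 3). A set named after Nudt21 held wild type cells (2) and Nudt21 knockout cells (2), all at 0 h. The labels call the 0 h cells untreated. The deleted exons, the way the genes were deleted, and the age and sex of the mice are not given in the sources used here.

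METTL3 is the catalytic subunit of the complex that writes m6A, a methyl mark on adenosines of messenger RNA that reader proteins use to set a transcript's stability and translation. NUDT21 is the subunit of cleavage factor I that binds UGUA upstream of cleavage sites and helps to choose where a transcript is cut and polyadenylated. Of the 5 genes, Adh1 encodes a class I alcohol dehydrogenase that oxidises ethanol and retinol, and Ampd1 encodes the muscle isoform of AMP deaminase, which turns AMP into IMP in the purine nucleotide cycle. Rgcc encodes a regulator of the cell cycle that was named for its response to complement and binds the mitotic kinase CDK1. Slc15a2 encodes PEPT2, a proton-coupled importer of short peptides, and Pmel encodes the protein whose fibrils form the scaffold of melanosomes in pigment cells.

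The 3′ ends of the annotated transcripts are shown because the factors deleted in these cells act on RNA, 1 of them at the cleavage site. The search read the annotated principal transcript of each gene (GENCODE M21, mm10) on the transcript strand only, for TGTA in the last 100 bases, for the poly(A) signals AATAAA and ATTAAA in the last 50, and for GGACT, a common context of m6A, in the whole transcript. Each line is 5′ to 3′ with the match in capitals, TGTA for 4 genes and AATAAA for Ampd1, which held no TGTA in its last 100 bases.
Adh1: aataaagtacttgTGTAagctctccacaag
Ampd1: agcaacagaatgAATAAAgtaaatagacta
Rgcc: cataatatattttTGTAtgcaaataaaatt
Slc15a2: tctgtgaataaaagtttttaTGTAcaagta
Pmel: ttttaaatctgtcTGTAgaggggtaagggt
Over 11159 genes with a transcript, 54.1% held a TGTA in that window and 20% held at least 2, as Rgcc did. An AATAAA lay in the last 50 bases of Adh1, Ampd1, Rgcc and Slc15a2, while Pmel held neither signal there, and 63.8% of the 11159 transcripts held AATAAA. In the Adh1 and Slc15a2 lines the TGTA follows the AATAAA, which lies in the lower-case bases. GGACT occurred 2 times in Adh1 and in Ampd1, 1 time in Rgcc, 5 times in Slc15a2 and 3 times in Pmel. Per kilobase this came to between 0.85 in Ampd1 and 1.41 in Pmel, beside a median of 1.05 over all genes, of which 91.2% held at least 1. A match describes the letters of an annotated transcript and shows neither a site used in these cells nor a mark on it. The GGACT nearest the 3′ end is shown for Adh1 and Rgcc, which were lower in both knockouts.
Adh1: cgacggaggggtGGACTtttcgtttgaagt
Rgcc: agccccggccatGGACTccgcggccgctgc

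**Figure D1:**
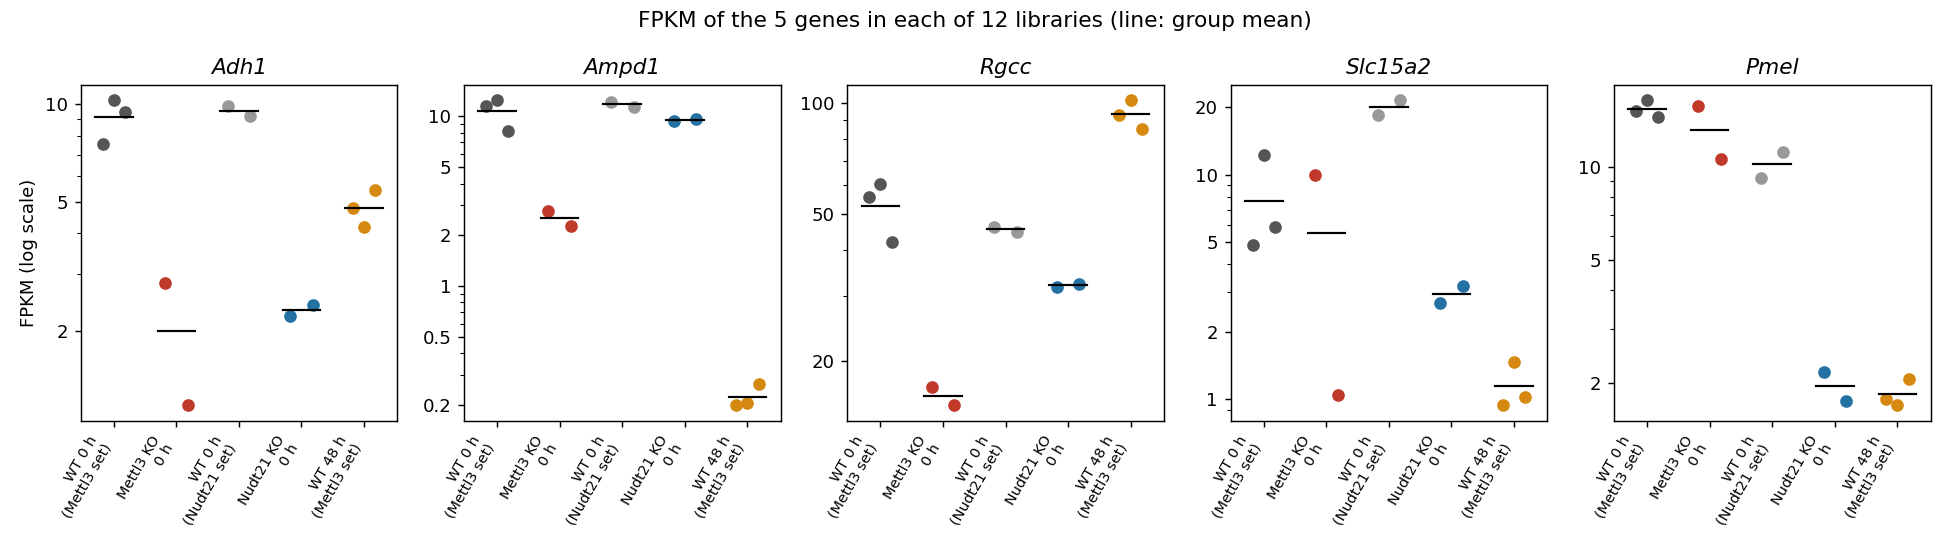
FPKM (log scale) of the 5 genes in each of the 12 libraries, by group, with a line at the group mean. Adh1 is low in both knockouts, Ampd1 and Rgcc are lowest at 0 h in the Mettl3 knockout, Pmel is lowest at 0 h in the Nudt21 knockout, Slc15a2 is low there and in Mettl3 knockout library 3, and at 48 h Rgcc alone is higher than in wild type cells at 0 h.

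The targeted genes followed the labels. The depth of each library cannot be read from the table, where FPKM summed to 345621 to 386983 per library. Mettl3 averaged 26.9 FPKM in wild type and 5.9 FPKM in Mettl3 knockout libraries at 0 h, and Nudt21 averaged 17.5 FPKM in its wild type and 7.13 FPKM in its knockout libraries. Mettl3 itself was also lower in the Nudt21 knockout, at 27.6 against 34.2 FPKM (log2 -0.30, limma adjusted p = 0.0351), a call that ended without 48 h library 1, either Nudt21 wild type or Nudt21 knockout 2, and with both scalings. The Mettl3 knockout libraries were less alike than other replicates, with a Pearson r of 0.9263 over genes against 0.9918 to 0.9974 for pairs within the other groups. Knockout library 3 stood apart in the summed FPKM of markers of other cells. Its 8 myeloid markers summed to 324 FPKM against 1.62 in knockout library 1 and 3.59 to 6.68 in the wild type libraries, its 5 B cell markers to 22.2 against 2.36 and 2.77 to 5.49, and its 6 CD8 T and NK cell markers to 141 against 32.5 and 24.7 to 29.3. In the Nudt21 set, myeloid markers summed to 33.6 to 81.4 FPKM in wild type and 187 to 283 in knockout libraries, and B cell markers to 22.8 to 35.7 and 69.1 to 117. Erythroid and platelet markers summed to 8.71 to 15.4 FPKM in the Mettl3 wild types at 0 h, 2.04 and 140 in Mettl3 knockouts 1 and 3, 149 to 186 in the Nudt21 wild types and 253 to 280 in that knockout. The 8 naive CD4 T cell markers summed to 1899 to 2403 FPKM in every library at 0 h. The Mettl3 set also mixes libraries with Xist, the female-specific RNA (wild type 1 and 2, knockout 1), and libraries with the Y-linked gene Ddx3y (wild type 3, knockout 3), while all Nudt21 libraries have Ddx3y.

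**Figure D2:**
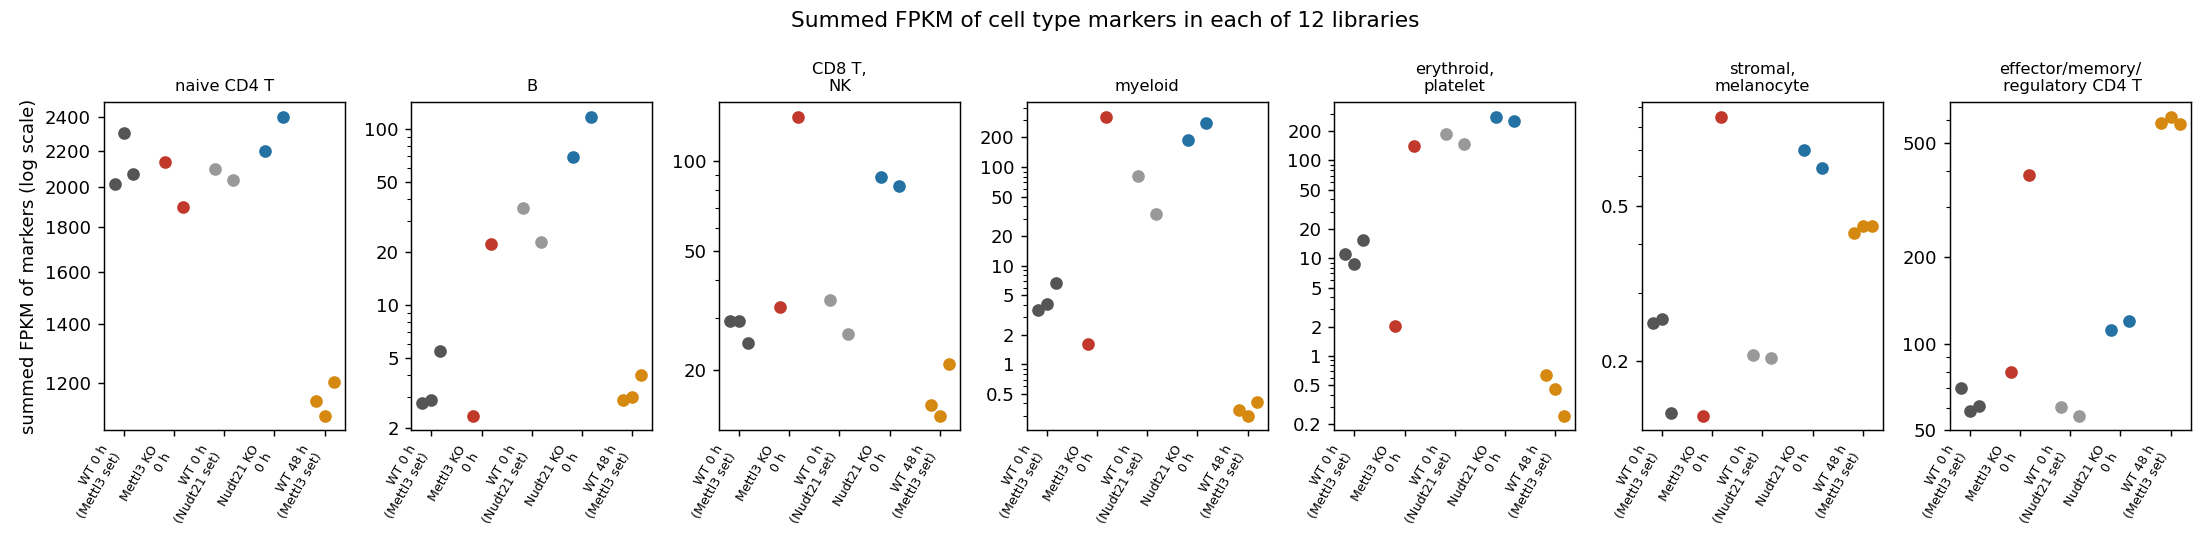
Summed FPKM (log scale) of 7 marker lists in each of the 12 libraries, by group. Mettl3 knockout library 3 and both Nudt21 knockout libraries lie above their wild types for B cell, CD8 T and NK cell and myeloid markers. Mettl3 knockout library 1 lies below its wild types at 0 h for B cell, myeloid and erythroid and platelet markers. Its sums lie above theirs for CD8 T and NK cell markers and for effector, memory and regulatory CD4 T cell markers. Single markers of both of these lists went both ways.

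Of the 5 genes, Adh1 was strongly lower in both knockouts, at 21.9% of the wild type mean in the Mettl3 knockout and 24.3% in the Nudt21 knockout. Rgcc was lower in both too, but to unequal degrees, at 30.5% and 70.7%. Ampd1 was low in the Mettl3 knockout at 23.4% and stood at 80.7% in the Nudt21 knockout. Slc15a2 and Pmel were low in the Nudt21 knockout, at 14.8% and 19.2%, and stood at 72.2% and 85.9% in the Mettl3 knockout, where their libraries overlapped with wild type. In bulk RNA, fewer cells of a type and less RNA per cell cannot be told apart.

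By limma (adjusted p under 0.05 over the 12511 genes), 3 of the 5 genes were called lower in the Mettl3 knockout (Adh1, Ampd1, Rgcc), where 12% of all genes were, and 4 in the Nudt21 knockout (Adh1, Rgcc, Slc15a2, Pmel), where 19% were. In both knockouts 2 of the 5 were called lower, Adh1 and Rgcc, beside 452 of all genes, or 3.61%. The values of these comparisons had chosen the 5 genes, so nothing is read from their counts against the shares of all genes. The 452 genes are 30% of the genes lower in the Mettl3 knockout and 19% of those lower in the Nudt21 knockout. The comparisons share no library, but both use the spread of each gene estimated over all 12 libraries, so their calls are not independent. With only the groups compared in each fit, 99 genes were called lower in both. By lack of overlap alone, every knockout library lay below every wild type library for 3 of the 5 genes in the Mettl3 set (21.2% of all genes), for all 5 in the Nudt21 set (44.2%) and for Adh1, Ampd1 and Rgcc in both (11.6%). The call of Rgcc in the Nudt21 knockout did not hold under every setting. It was lost when any of the 4 Nudt21 libraries or 48 h library 1 was left out (log2 changes of -0.51 to -0.47), with median-ratio scaling (-0.41), with quantile scaling (-0.46) and with no filter (-0.49), which leaves Adh1 as the 1 gene called in both.

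As a share of all calls, genes called higher made up 58.3% in the Mettl3 knockout and 31.4% in the Nudt21 knockout. They were 16.8% and 8.73% of all genes tested, and none of the 5. With median-ratio scaling of the libraries these shares were 47.6% and 49.4%, and with quantile scaling the first was 37.3%. The median log2 change of all genes at 48 h moved from 0.07 to -0.11 with quantile scaling. The log2 change of none of the 5 genes changed direction in any of the 3 comparisons with either scaling.

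**Figure D3:**
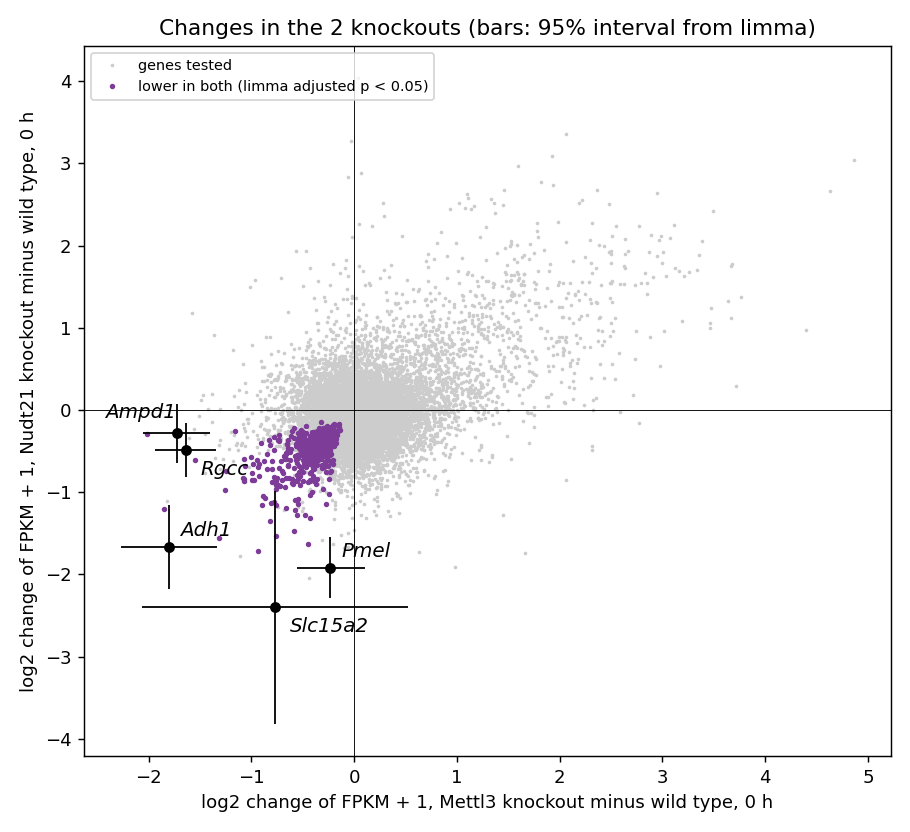
Log2 change of FPKM + 1 in the Mettl3 knockout (x axis) and in the Nudt21 knockout (y axis) against wild type at 0 h, with bars of the 95% interval from limma, for the 5 genes over all genes tested (grey) and those called lower in both (purple). Adh1 lies at -1.80 and -1.67, Ampd1 and Rgcc lie far to the left at -1.72 and -1.64, and Pmel and Slc15a2 lie low at -1.92 and -2.40.

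Adh1 (ENSMUSG00000074207, mm10 chromosome 3, 138260991 to 138290698, plus strand) held 7.56, 10.3 and 9.48 FPKM in resting wild type cells of the Mettl3 set and 2.81 and 1.18 FPKM in Mettl3 knockout libraries 1 and 3. Wild type libraries of the Nudt21 set held 9.91 and 9.18 FPKM, and the knockout libraries 2.22 and 2.41 FPKM. The 5 wild type libraries at 0 h thus lay between 7.56 and 10.3 FPKM, the 4 knockout libraries between 1.18 and 2.81 FPKM, and the ranges were apart in both sets. On the scale of log2(FPKM + 1), the change was -1.80 (SE 0.21, 95% interval -2.27 to -1.33) in the Mettl3 knockout and -1.67 (SE 0.23, -2.18 to -1.16) in the Nudt21 knockout. The changes differed by -0.13 (SE 0.31). Adh1 ranked 4 and 11 from the lowest among the changes of all genes. After 48 h the level was 4.79, 4.2 and 5.43 FPKM, between the knockouts and the resting wild types. The mean fell from 9.1 ± 1.39 to 4.8 ± 0.616 FPKM (SD, n = 3 and 3), a log2 change of -0.80 (SE 0.19, limma adjusted p = 0.00281). From lowest to highest mean, the groups were Mettl3 knockout (2 ± 1.16 FPKM), Nudt21 knockout (2.32 ± 0.139), 48 h, wild type of the Mettl3 set and wild type of the Nudt21 set (9.55 ± 0.519), and both the knockouts and both the wild types overlapped with each other.

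Ampd1 (ENSMUSG00000070385, chromosome 3, 103074014 to 103099720, plus strand) held 11.5, 12.4 and 8.18 FPKM in wild type cells of the Mettl3 set and 2.76 and 2.25 FPKM in the Mettl3 knockout. Every Mettl3 knockout library was below every wild type library, at a log2 change of -1.72 (SE 0.14, 95% interval -2.05 to -1.40). The Nudt21 wild types held 12.1 and 11.3 FPKM, and the Nudt21 knockouts 9.38 and 9.56 FPKM. These groups did not overlap either, but the log2 change of -0.28 (SE 0.16, -0.64 to 0.07) was small. It was called only when the fit held no other groups than these. The changes in the knockouts differed by -1.44 (SE 0.21) on the log2 scale. At 48 h the transcript was nearly gone, at 0.198, 0.203 and 0.263 FPKM. The mean fell from 10.7 ± 2.24 to 0.221 ± 0.0364 FPKM (SD, n = 3 and 3), a log2 change of -3.24 (SE 0.13, limma adjusted p = 1.34e-08) that the pseudocount of 1 FPKM compresses, and that was -5.06 with a pseudocount of 0.1 FPKM. Its order of means was 48 h, Mettl3 knockout (2.5 ± 0.364 FPKM), Nudt21 knockout (9.47 ± 0.131), wild type of the Mettl3 set and wild type of the Nudt21 set (11.7 ± 0.574). The last 3 overlap in part, since wild type library 3 of the Mettl3 set lay below the Nudt21 knockout libraries.

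Rgcc (ENSMUSG00000022018, chromosome 14, 79288756 to 79301645, minus strand) had the highest level of the 5 genes in every group, per kilobase of transcript. It held 55.6, 60.6 and 42 FPKM in wild type cells of the Mettl3 set and 17 and 15.2 FPKM in the Mettl3 knockout, a log2 change of -1.64 (SE 0.13, 95% interval -1.94 to -1.34). Levels in the Nudt21 set were 46.2 and 44.9 FPKM without the deletion and 31.8 and 32.5 FPKM with it, a log2 change of -0.49 (SE 0.15, -0.82 to -0.16). Neither pair of groups overlapped, and the drop was greater in the Mettl3 set, by -1.15 (SE 0.20) on the log2 scale. At 48 h Rgcc went the other way from the knockouts, to 93.1, 102 and 85.3 FPKM. The mean rose from 52.7 ± 9.62 to 93.5 ± 8.37 FPKM (SD, n = 3 and 3), a log2 change of 0.83 (SE 0.12, limma adjusted p = 0.000104). The order of means was Mettl3 knockout (16.1 ± 1.32 FPKM), Nudt21 knockout (32.2 ± 0.474), wild type of the Nudt21 set (45.5 ± 0.914), wild type of the Mettl3 set and 48 h, with overlap between the wild types alone.

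The regions upstream of Adh1 and Rgcc are shown because the levels of these genes were lower in both knockouts. They span 250 bases before to 50 after the transcript start in RefSeq (GRCm38.p6, the assembly of mm10), 5′ to 3′ on the gene's strand, with motif matches in capitals. The RefSeq start of Adh1 lies inside the longer span of the gene in GENCODE M21.
Adh1, chr3:138277335-138277634, plus strand: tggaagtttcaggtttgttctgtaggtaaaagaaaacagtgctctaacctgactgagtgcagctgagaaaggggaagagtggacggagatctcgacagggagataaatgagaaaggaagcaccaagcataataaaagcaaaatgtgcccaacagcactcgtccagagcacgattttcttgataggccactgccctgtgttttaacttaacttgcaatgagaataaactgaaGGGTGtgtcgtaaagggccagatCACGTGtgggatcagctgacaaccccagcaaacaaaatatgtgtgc
Rgcc, chr14:79301586-79301885, minus strand: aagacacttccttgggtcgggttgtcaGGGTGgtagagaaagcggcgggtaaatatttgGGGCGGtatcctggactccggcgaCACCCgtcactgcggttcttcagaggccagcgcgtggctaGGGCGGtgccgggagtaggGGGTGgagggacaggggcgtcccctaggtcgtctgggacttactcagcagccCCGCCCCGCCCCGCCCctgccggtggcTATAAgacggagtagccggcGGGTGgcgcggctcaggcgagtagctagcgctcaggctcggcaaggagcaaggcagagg
The motifs searched on both strands were the GC box GGGCGG, the KLF motif core CACCC, the FOXO motif GTAAACA, the TCF/LEF motif core CTTTGA and the E-box CACGTG, and TATAA was searched on the gene's strand only. Adh1 held 1 CACCC and 1 CACGTG, in a window of 45.3% GC. Rgcc held 5 GGGCGG, 4 CACCC and 1 TATAA, in a window of 66.7% GC. Of 11813 promoters of the same length, 61.5% held GGGCGG, 62.8% CACCC, 2.54% GTAAACA, 12% CTTTGA, 10.1% CACGTG and 9.29% TATAA, and the median GC content was 60.3%. The Slc15a2 window held 1 GGGCGG and 1 CACCC. Of the 5 genes, 3 were matched to a RefSeq promoter.

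Slc15a2 (ENSMUSG00000022899, chromosome 16, 36750177 to 36784962, minus strand) spread widely among the libraries of the Mettl3 set. It held 4.88, 12.2 and 5.87 FPKM in wild type cells of the Mettl3 set and 10 and 1.05 FPKM in Mettl3 knockout libraries 1 and 3. Knockout library 1 lay within the wild type range and library 3 below it, so the mean log2 change of -0.77 (SE 0.58, 95% interval -2.06 to 0.52) describes neither. It was 0.44 without library 3 and -1.98 without library 1. Library 3, where Slc15a2 was 13.8% of the wild type mean, is the library with the high sums of myeloid, B, CD8 T and NK cell markers. The part of other cells in this value was not tested. Of the Nudt21 set, the wild types held 18.4 and 21.5 FPKM and the knockouts 2.7 and 3.2 FPKM. These groups were far apart, and the log2 change of -2.40 (SE 0.63, -3.82 to -0.99) was the lowest of all genes tested. The shared estimate of spread is wide for this gene, and its call was lost with any of the 4 Nudt21 libraries left out (-2.51 to -2.30) and with no filter. The wild types of the sets differed as well, at 19.9 ± 2.17 FPKM in the Nudt21 set and 7.66 ± 3.98 FPKM in the Mettl3 set, with no overlap. The set and anything else that separates these libraries cannot be told apart. At 48 h the level fell to 0.941, 1.47 and 1.03 FPKM, 15% of the wild type mean at 0 h (log2 change -1.92, SE 0.52, limma adjusted p = 0.00611). From lowest to highest, the means were 48 h (1.15 ± 0.284 FPKM), Nudt21 knockout (2.95 ± 0.355), Mettl3 knockout (5.53 ± 6.33), wild type of the Mettl3 set and wild type of the Nudt21 set, and the Mettl3 knockout overlapped with its neighbours in this order.

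Pmel (ENSMUSG00000025359, chromosome 10, 128704195 to 128720238, plus strand) held 15.1, 16.4 and 14.5 FPKM in wild type cells of the Mettl3 set. Mettl3 knockout libraries 1 and 3 held 15.7 and 10.6 FPKM, the first within the wild type range and the second below it. The log2 change of -0.23 (SE 0.15, 95% interval -0.56 to 0.11) was not called. It was 0.04 without knockout library 3, and -0.49, which was called, without library 1. The Nudt21 wild types held 9.2 and 11.2 FPKM of Pmel and the knockouts 2.17 and 1.75 FPKM, with no overlap and a log2 change of -1.92 (SE 0.16, -2.29 to -1.55), rank 3 from the lowest. The changes in the knockouts differed by 1.69 (SE 0.22). Wild type cells of the Nudt21 set held 66.6% of the level in wild type cells of the Mettl3 set, again with no overlap. At 48 h Pmel was as low as in the Nudt21 knockout, at 1.78, 1.7 and 2.06 FPKM. The mean fell from 15.3 ± 0.973 to 1.85 ± 0.192 FPKM (SD, n = 3 and 3), a log2 change of -2.52 (SE 0.13, limma adjusted p = 7.32e-08). In order, the means were 48 h, Nudt21 knockout (1.96 ± 0.299 FPKM), wild type of the Nudt21 set (10.2 ± 1.43), Mettl3 knockout (13.2 ± 3.64) and wild type of the Mettl3 set. The first pair overlapped, the last 3 overlapped with their neighbours, and a wide gap lay between 2.17 and 9.2 FPKM. The melanocyte genes Tyr and Tyrp1 were listed at 0 in all 5 groups. Of the same list, Mlana was highest at 0.141 FPKM in Nudt21 knockout library 1, and Dct at 0.0319 FPKM in 48 h library 3.

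Over 48 h of stimulation, 4 of the 5 genes fell and Rgcc rose. Of all genes 34.9% fell and 43.6% rose, so a change at 48 h is common. The comparison uses libraries at 48 h that did not serve to choose the genes, but it shares the 3 wild type libraries at 0 h with the Mettl3 knockout comparison. The Nudt21 set holds no library in common with it, but the fit estimates the spread of each gene over all 12 libraries. Of the 452 genes called lower in both knockouts, 292 fell at 48 h (64.6%), as Adh1 did, and 103 rose, as Rgcc did. The SEs and p-values at 48 h come from a fit that does not pair the libraries by number. The calls of the 5 genes at 48 h held under every alternative tried, a replicate block among them.

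Within libraries of like sex genes, 3 of the 5 genes were low in both knockout libraries of the Mettl3 set, Ampd1 and Rgcc to like degrees and Adh1 to unequal ones. In the libraries with Xist, knockout library 1 stood at 31.6% of the mean of wild type libraries 1 and 2 for Adh1, 23.1% for Ampd1 and 29.3% for Rgcc. In those with Ddx3y, knockout library 3 stood at 12.4%, 27.5% and 36.1% of wild type library 3. Slc15a2 stood at 117% in the first and 18% in the second, and Pmel at 100% and 72.9%. For Adh1, Ampd1 and Rgcc these libraries had served to choose the genes and did not overlap with wild type. Low levels on each side were thus fixed in advance, and nothing is read from them about sex. With 1 knockout library on each side there is no test within them. Knockout library 1 had the lowest sums of B cell and myeloid markers among the 0 h libraries. Its sum for CD8 T and NK cells was 32.5 FPKM, above the 24.7 to 29.3 FPKM of its wild types at 0 h. Single markers of this list went both ways. Cd8b1 (19 against 7.32 to 8.52 FPKM), Nkg7 (8.23 against 3.69 to 6.05) and Klrb1c (0.281 against 0.116 to 0.258) were above every wild type. Klrd1 (4.7 against 11.6 to 16.7 FPKM) and Cd8a (0.1 against 0.241 to 0.455) were below every wild type. Knockout library 1 summed to 79.8 FPKM for effector, memory and regulatory CD4 T cells, above the 58.2 to 70.1 FPKM of its wild types. These markers went both ways too. Ccl5 (24.4 against 6.12 to 13.7 FPKM) and Il2rb (17.6 against 11.6 to 14.8) were above every wild type, as were Il2ra, Cxcr3 and Tbx21. Cd44 (1.28 against 3.22 to 5.04 FPKM) and Ctla4 (6.12 against 6.83 to 9.97) were below every wild type. Adh1, Ampd1 and Rgcc stood at 2.81, 2.76 and 17 FPKM in this library, below every wild type library at 0 h. The part of other cells in these values was not tested. In the Nudt21 set 3 of 5 B cell markers, 2 of 6 CD8 T and NK cell markers, 1 of 8 myeloid markers and 1 of the 4 erythroid and platelet markers that passed the filter rose in the knockout by limma, and both knockout libraries carry those sums, so the part of other cells in the Nudt21 values was not tested.

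The genes next to the 5 on the chromosome are set beside them. Of all genes, 12% were called lower in the Mettl3 knockout and 19% in the Nudt21 knockout. Of the genes annotated within 50 kb, 24 are counted here, some of them with no measured value. Of these, 14 are protein coding, and 13 of any kind passed the filter, with none near Adh1. The genes there lay far below 1 FPKM and were not tested. Gm16559 stood at 0.172 and 0.0391 FPKM in wild type and knockout of the Mettl3 set, and at 0.238 and 0.01 FPKM in the Nudt21 set. For 0610031O16Rik these values were 0.171 and 0, and 0.255 and 0. For Adh7 they were 0.0586 and 0.0064, and 0.105 and 0, and for Adh6a 0.00228 and 0.00462, and 0.00276 and 0. At the Ampd1 locus 2 genes passed in the Mettl3 knockout. Gm43063 is annotated inside an intron of Ampd1 on the same strand, with no exon in common. It fell in the Mettl3 knockout from 2.79 to 0.528 FPKM (log2 -1.30, limma adjusted p = 0.000108). In the Nudt21 knockout it did not pass (-0.37, adjusted p = 0.0504). All of its 1081 bases lie within Ampd1, so reads from unspliced Ampd1 RNA cannot be told apart from its own. Ampd1 was chosen on these comparisons, so the values of Gm43063 are a description and nothing more is read from its call. Dennd2c, which encodes a DENN domain protein, fell in the Mettl3 knockout from 1.9 to 0.786 FPKM (-0.70, adjusted p = 0.000631) and stood at 1.91 and 2.29 FPKM in the Nudt21 set (0.17, adjusted p = 0.204). The RAS gene Nras had the reverse pattern, at -0.25 in the Mettl3 knockout (adjusted p = 0.0737) and a fall of -0.63 in the Nudt21 knockout (adjusted p = 0.00277). The noncoding gene Gm43062 passed there too, from 0.9 to 0.315 FPKM (-0.53, adjusted p = 0.0294), a call that ended when any of the 4 Nudt21 libraries was left out, and stood at 1.42 and 1.01 FPKM in the Mettl3 set (-0.25, adjusted p = 0.193).

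Near Rgcc, Naa16 passed in neither knockout (-0.11 and -0.17). Near Slc15a2, Ildr1 fell in the Mettl3 knockout from 0.857 to 0.211 FPKM (-0.61, limma adjusted p = 0.0148), while Eaf2 and Iqcb1 passed in neither. Pmel overlaps Cdk2 by 837 bases (34 of them exonic in both) and Dgka by 105 bases, all exonic, both on the opposite strand, and the use of strand in counting is not given in the sources used here. Reads from these overlaps cannot be assigned to a gene. Cdk2, a cyclin-dependent kinase, stood at 33.1 and 36.1 FPKM in wild type and Nudt21 knockout cells (log2 0.12, limma adjusted p = 0.399). Dgka, a diacylglycerol kinase, stood at 475 and 471 FPKM (-0.01, limma adjusted p = 0.953), far above Pmel. Values per gene do not show the reads within the overlaps, so the part of such reads in the Pmel values was not tested. At 48 h Dgka fell from 476 to 121 FPKM (-1.96, adjusted p = 5.20e-08), alongside Pmel, and Cdk2 rose from 26 to 51.2 FPKM (0.95, adjusted p = 2.25e-06). Of the other neighbours of Pmel, Rab5b and Pym1 passed in neither knockout, and Suox passed in the Mettl3 knockout (0.27, adjusted p = 0.029), a call that was lost without Mettl3 wild type 1 or knockout 1 and with either scaling. Adh1 overlaps the antisense gene Gm16559 over 136 exonic bases, so reads there cannot be assigned either.

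**Figure D4:**
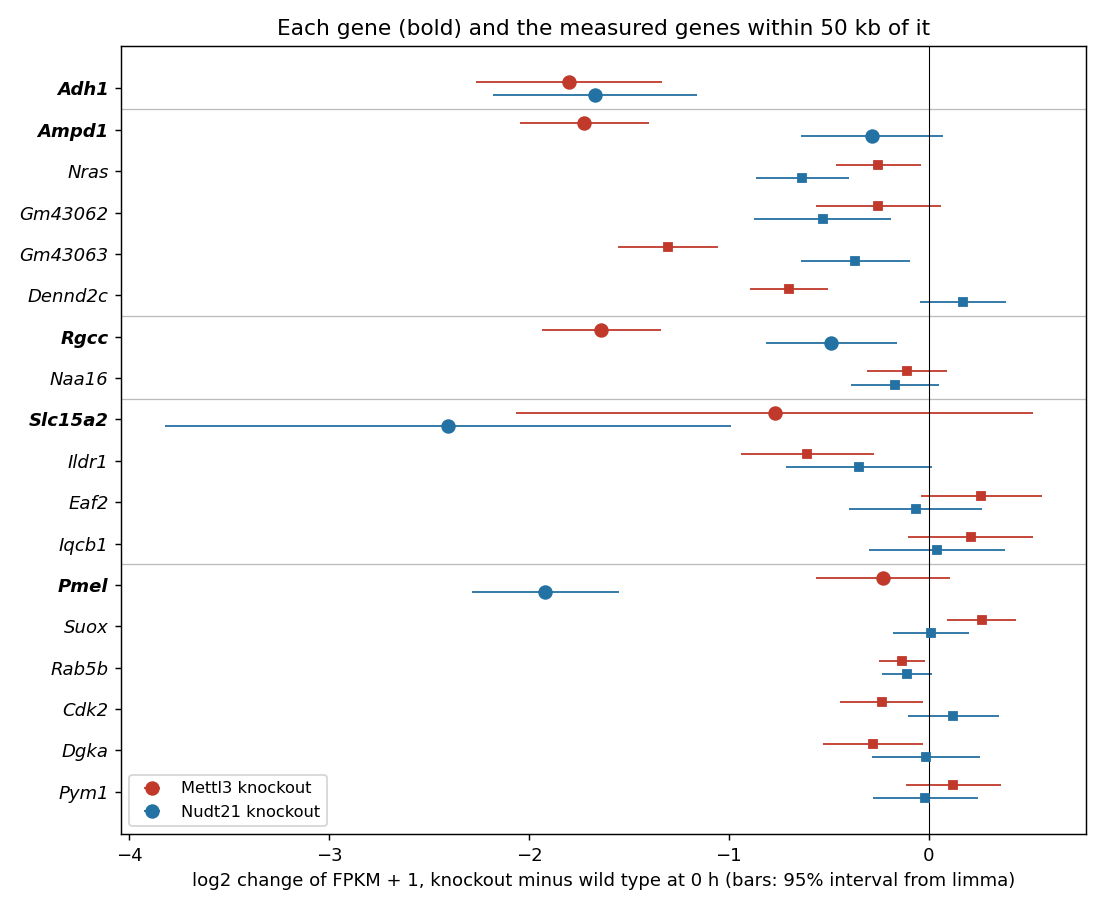
Log2 change of FPKM + 1 in each knockout for the 5 genes and for 13 neighbouring genes within 50 kb that passed the filter, grouped by locus, with bars of the 95% interval from limma. Gm43063 (-1.30) and Dennd2c (-0.70) lie low with Ampd1 in the Mettl3 knockout. Gm43063 lies within Ampd1 on the same strand, and their reads are not resolved. Cdk2 (0.12), Dgka (-0.01) and Pmel (-1.92) are shown per gene in the Nudt21 knockout, and reads within their overlaps are not resolved.

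Over the 12 libraries, the 5 genes did not share 1 pattern. Pearson's r of log2(FPKM + 1) between pairs of them ran from -0.43 (Rgcc and Pmel) to 0.73 (Ampd1 and Slc15a2), and was 0.55 for Adh1 and Rgcc. The libraries share groups and conditions, so these values are descriptions. Among 9231 protein coding genes with at least 5 FPKM in their highest group, the most alike to Adh1 were Polr2a (0.970), Rala (0.955) and Bbs9 (0.948). For Ampd1 they were Kcnmb4 (0.993), Xkrx (0.991) and Gabrr2 (0.991), for Rgcc Rgs11 (0.962), Cbarp (0.956) and Fam168a (0.955), for Slc15a2 Slc39a3 (0.941), Cirbp (0.940) and Rhbdd2 (0.925), and for Pmel Uvssa (0.992), Rapgef4 (0.990) and Parp4 (0.988). Xkrx, for example, averaged 11.2 FPKM in wild type cells of the Mettl3 set, 3.47 in the Mettl3 knockout, 10.3 and 8.28 in the Nudt21 wild type and knockout, and 1.09 at 48 h, close to the course of Ampd1. Rgs11 averaged 18.7, 5.69, 21.8, 13.9 and 31.9 FPKM in the same order, with the rise at 48 h that Rgcc had. Bbs9, at 8.83, 4.74, 7.98, 4.09 and 6.49 FPKM, was lower in both knockouts as Adh1 was, but less so. Pearson's r does not measure the size of a change. Polr2a, the gene most alike to Adh1, averaged 67.4, 52.4, 65.5, 53.1 and 60.2 FPKM in that order, and Rala 15.6, 11.6, 15.9, 12.4 and 13.4.

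Of 6 paralogues that passed the filter, 1 fell in the Mettl3 knockout and 2 in the Nudt21 knockout. Ampd3, the AMP deaminase first described in red cells, fell in both, from 9.17 ± 0.406 to 6.29 ± 0.71 FPKM in the Mettl3 set (n = 3 and 2, log2 -0.48, limma adjusted p = 0.00199) and from 8.84 ± 0.128 to 5.27 ± 0.149 FPKM in the Nudt21 set (n = 2 and 2, log2 -0.65, limma adjusted p = 0.000914). It thus fell in the Nudt21 knockout, where Ampd1 was not called, and at 48 h it fell as Ampd1 did, to 2.3 FPKM (-1.62, limma adjusted p = 1.83e-08). Ampd2, another AMP deaminase, passed in neither, at 14.9 and 15.5 FPKM in the Mettl3 set and 17.4 and 16.4 FPKM in the Nudt21 set. Adh5, the glutathione-dependent formaldehyde dehydrogenase of the same family as Adh1, was near level at 50.1 and 47.9 FPKM in the Mettl3 set. Its change from 56.9 to 50.2 FPKM in the Nudt21 set (log2 -0.18, limma adjusted p = 0.0477) lost its call when any 1 of 9 libraries was left out and with median-ratio scaling. Of the other peptide transporters of the Slc15 family, the lysosomal Slc15a4 stood at 8.91 and 10.2 FPKM in the Mettl3 set and 10.3 and 10.2 FPKM in the Nudt21 set, and Slc15a3 stood at 0.0717 and 1.49 and at 0.396 and 1.92 FPKM, with no call in any of these.

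The rest of the pathway of each gene is given without the gene itself, beside medians of all genes of 0.04 in the Mettl3 and -0.05 in the Nudt21 knockout (log2). Of all genes, 16.8% rose and 12% fell in the Mettl3 knockout, and 8.73% rose and 19% fell in the Nudt21 knockout. Counts of a list near these shares are not read as results about the list. Of 23 genes of retinol and alcohol oxidation, 5 rose and 0 fell in the Mettl3 knockout (median 0.14), and 0 rose and 5 fell in the Nudt21 knockout (median -0.06). Aldh1b1, a mitochondrial aldehyde dehydrogenase, rose in the Mettl3 knockout from 2.42 to 4.4 FPKM (log2 0.66, limma adjusted p = 0.00129). Rdh5, a retinol dehydrogenase, fell in the Nudt21 knockout from 9.55 to 3.21 FPKM (-1.33, limma adjusted p = 0.000274) and at 48 h stood at 3.22 FPKM, whereas in the Mettl3 set it was 8.95 and 7.74 FPKM (adjusted p = 0.253). The 5 that rose were 3 without Mettl3 knockout library 3, and the 5 that fell were 1 without either Nudt21 wild type library, 2 without Nudt21 knockout library 2, and 2 and 3 with median-ratio and quantile scaling. With those scalings 1 gene each rose in the Nudt21 knockout, and 1 and 2 genes fell in the Mettl3 knockout.

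Of 28 genes of purine nucleotide interconversion, 5 rose and 3 fell in the Mettl3 knockout (median 0.15), and 1 rose and 5 fell in the Nudt21 knockout (median -0.04). Adenosine deaminase, Ada, rose in the Mettl3 knockout from 4.43 to 11.3 FPKM (log2 1.18, limma adjusted p = 0.000422), and Impdh1, which makes XMP from IMP, fell from 62.2 to 40.5 FPKM (-0.61, adjusted p = 0.000654). Adenosine kinase, Adk, fell in the Nudt21 knockout from 20.3 to 10.6 FPKM (-0.88, limma adjusted p = 0.000881). The 5 that rose in the Mettl3 knockout were 13 without library 1 of that knockout. The 1 that rose in the Nudt21 knockout was 5 without either Mettl3 knockout library and 0 without Nudt21 knockout library 2 or either Nudt21 wild type library. Of 14 genes of the AMP-activated protein kinase, which senses the AMP that AMP deaminases remove, 1 rose and 3 fell in the Mettl3 knockout (median 0.01), and 0 rose and 6 fell in the Nudt21 knockout (median -0.20). Prkab1, a beta subunit, fell in the Mettl3 knockout from 44.9 to 35.2 FPKM (-0.34, limma adjusted p = 0.00205), and Stk11, the upstream kinase LKB1, rose from 50 to 65.5 FPKM (0.38, adjusted p = 0.00256). The 6 that fell were 1 without either Nudt21 wild type library or Nudt21 knockout library 2, 3 without Nudt21 knockout library 1, and 3 and 2 with median-ratio and quantile scaling. Median-ratio scaling also added 1 that rose in the Nudt21 knockout.

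Of 13 partners of Rgcc and genes of mitotic entry, 3 rose and 0 fell in the Mettl3 knockout (median 0.67), 1 rose and 1 fell in the Nudt21 knockout (median 0.09), and 12 rose and 1 fell at 48 h (median 3.24, against 0.07 for all genes). Cdc25b, a phosphatase that activates CDK1, rose in both knockouts, from 16.2 to 34.5 FPKM (log2 1.04, limma adjusted p = 0.000608) and from 15.9 to 27.5 FPKM (0.75, limma adjusted p = 0.00467). Pkmyt1, a kinase that restrains CDK1, fell in the Nudt21 knockout from 21.4 to 13.6 FPKM (-0.62, limma adjusted p = 0.000161) and stood at 18.1 and 18 FPKM in the Mettl3 set. Cdc25b was thus the 1 gene of the list that rose in the Nudt21 knockout, where Rgcc was lower. The 3 that rose in the Mettl3 knockout were 9 without library 1 and 1 without library 3 of that knockout or without any single Nudt21 library. Each Mettl3 knockout library left out raised the calls in the Nudt21 knockout to 3 that rose and 2 that fell. With median-ratio and quantile scaling 1 and 2 genes fell in the Mettl3 knockout. Of 13 complement genes, 2 rose in the Mettl3 knockout (median 0.45), and 3 rose and 2 fell in the Nudt21 knockout (median 0.77). Cd59b, an inhibitor of complement lysis, was near 0 in wild type and rose to 2.18 FPKM in the Nudt21 knockout (1.62, limma adjusted p = 0.000241). Without Mettl3 knockout library 1, with the myeloid-high library 3 as the only knockout, 9 complement genes rose in that comparison. Without either Mettl3 knockout library 8 rose in the Nudt21 knockout, and without Nudt21 knockout 2 or wild type 2 it was 1.

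Of 9 genes of peptide transport and muramyl peptide sensing, 1 rose and 1 fell in the Mettl3 knockout (median 0.22), and 0 rose and 3 fell in the Nudt21 knockout (median -0.01). Xiap, an inhibitor of apoptosis that signals below the NOD receptors, fell in the Nudt21 knockout from 10.2 to 5.81 FPKM (log2 -0.72, limma adjusted p = 0.00148). Ripk2, the kinase of these receptors, rose in the Mettl3 knockout from 6.13 to 8.8 FPKM (0.46, limma adjusted p = 0.00765), a call that quantile scaling ended. The count of genes that rose was 5 without Mettl3 knockout library 1, and that of genes that fell was 1 to 2 without a single Nudt21 library. In the Nudt21 knockout 1 and 2 genes rose with median-ratio and quantile scaling, and 2 without either Mettl3 knockout library. Of 17 peptidases, 6 rose and 2 fell in the Mettl3 knockout (median 0.04), and 0 rose and 5 fell in the Nudt21 knockout (median -0.16). The dipeptidase Cndp2 rose in the first, from 28.1 to 38.1 FPKM (0.42, limma adjusted p = 0.00217), and the dipeptidyl peptidase Dpp8 fell in the second, from 27.3 to 21.3 FPKM (-0.35, limma adjusted p = 0.00195). The 5 that fell were 1 without Nudt21 knockout 2 or wild type 1, 2 without wild type 2, 3 without knockout 1 and 2 with median-ratio scaling.

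Of 20 genes of melanosome biogenesis other than Pmel, 8 rose and 2 fell in the Mettl3 knockout (median 0.15), and 2 rose and 5 fell in the Nudt21 knockout (median -0.05). Most genes of this list encode trafficking factors that other cells use for lysosome-related organelles. Bloc1s3 and Bloc1s4, subunits of the sorting complex BLOC-1, rose in the Mettl3 knockout from 3.75 to 6.72 FPKM (log2 0.70, limma adjusted p = 0.000265) and from 13.8 to 22.4 FPKM (0.65, limma adjusted p = 0.00044). Hps3, a subunit of BLOC-2, fell in the Nudt21 knockout from 26 to 17.1 FPKM (-0.57, limma adjusted p = 0.00123) and at 48 h to 6.27 FPKM, in the direction of Pmel. The 8 that rose were 5 without Mettl3 knockout library 3, and the 5 that fell were 2 or 3 without a single Nudt21 library and with either scaling.

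As the cells had been sorted as naive, 30 genes of naive and quiescent T cells were set beside them. At 48 h 24 of the 30 fell and 2 rose (median log2 change -1.45), in the direction of Adh1, Ampd1, Slc15a2 and Pmel. In the Mettl3 knockout 11 fell and 3 rose (median -0.21), among them Actn1, an actin crosslinker, from 178 to 122 FPKM (-0.55, limma adjusted p = 0.00157) and Ramp1, a receptor accessory protein, from 20 to 10.1 FPKM (-0.92, limma adjusted p = 0.000493). In the Nudt21 knockout 6 fell and 3 rose (median -0.02). Rapgef4, an exchange factor that cAMP activates and 1 of the 3 genes most like Pmel, fell there from 15.9 to 4.65 FPKM (-1.58, limma adjusted p = 0.000746), and the chemokine receptor gene Ccr9 rose from 1.96 to 6.5 FPKM (1.33, limma adjusted p = 0.00148). The 11 that fell in the Mettl3 knockout were 16 without library 1 and 6 without library 3 of that knockout, and the 6 in the Nudt21 knockout were 2 to 8 with a library left out, lowest without Nudt21 knockout 2 or wild type 2. Markers of effector, memory and regulatory CD4 T cells summed to 58.2 to 70.1 FPKM in the Mettl3 wild types at 0 h, 79.8 and 386 FPKM in knockout libraries 1 and 3, 56.3 to 60.5 FPKM in the Nudt21 wild types and 112 to 120 FPKM in that knockout, and their part in these counts was not tested.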

How the data were processed

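The authors deposited 1 table with FPKM per gene for 32285 Ensembl genes in 12 libraries. Per the submitters' processing notes, which give no version or role, Bowtie and mm10 were involved, and total RNA, a NEBNext Ultra kit and paired-end sequencing are named per the labels' protocols. The program behind the FPKM values, its annotation and its use of strand are not given in the sources used here. Low values were no whole multiples of a common read step, so reads were not recovered, count tests and counting intervals are left out. Values were analysed as log2(FPKM + 1), a scale that understates changes of low genes, for the 12511 genes that reached 1 FPKM in 2 or more libraries. The 5 groups entered 1 fit over the 12 libraries by limma 3.58.1 under R 4.3.3 (trended empirical Bayes, 7 residual degrees of freedom, median prior 2.64), with Benjamini-Hochberg adjustment over all 12511 genes and a threshold of 0.05. It was tested on simulated data. Positions came from GENCODE M21, which matched 32235 of 32285 identifiers. Libraries were grouped by title. Nothing in the labels says whether replicates are separate animals, so p-values reflect only the spread between libraries. Part of it may be technical, although the libraries of the Mettl3 set with Xist and those with Ddx3y must come from different animals.

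The 5 genes, the pathway lists and the tests were chosen with earlier results of these data known. Other genes were named by a rule, which took Mettl3 and Nudt21, up to 4 passing genes of each list by smallest p, paralogues, neighbours within 50 kb at 1 FPKM or more (1 of them is not reported here), and the 3 genes of highest Pearson r with each of the 5. Of the genes taken from the lists, the text prints only those with a call that kept when any 1 library was left out, so they are sturdier than the lists. Gm43062, Gm43063, Gm16559, 0610031O16Rik and Ddx3y are outside the rule and were chosen after their values were seen, as was Xist. The deviations of same-numbered wild type libraries at 0 and 48 h correlated at 0.197, 0.177 and 0.187, and those of differently numbered ones were all negative, which goes with pairing by number. The main fit holds no replicate block, so the SEs and p-values printed for 48 h leave this pairing out. With the block, the adjusted p at 48 h was higher for Adh1, Ampd1 and Slc15a2 and lower for Rgcc, and their calls held. In the knockout comparisons only 2 pairs share a number. Alternatives were other pseudocounts, filters and scalings, library weights, fits to the groups compared, a replicate block, and each library left out. Figures were drawn with matplotlib 3.10.9.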

Additional observations from a re-analysis of the deposited data

Results flagged for a closer look

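For 38 genes beside the 5, the gap between the changes in each knockout was tested (log2 change in the Mettl3 knockout minus that in the Nudt21 knockout, limma), and 21 passed, with adjusted p between 0.000823 and 0.0243. Most of the 38 had been taken by their small p in a knockout comparison, so their share is not set against that of all genes, of which 3164 passed, or 25.3%. Of all 167 genes of the lists, 45 passed. Among genes of the Adh1 and Ampd1 pathways, the difference was 0.77 for Aldh1b1, 1.14 for Rdh5, 0.91 for Ada, 0.72 for Adk, -0.57 for Impdh1, 0.49 for Stk11 and -0.32 for Prkab1. Among those of the Rgcc and Slc15a2 pathways it was 0.61 for Pkmyt1, -1.68 for Cd59b, 0.54 for Ripk2, 0.72 for Xiap, 0.58 for Cndp2 and 0.36 for Dpp8. Melanosome genes differed by 0.55 for Hps3, 0.76 for Bloc1s3 and 0.75 for Bloc1s4. Naive T cell genes differed by -1.14 for Ramp1, 1.27 for Rapgef4 and -1.61 for Ccr9. At the Ampd1 locus the difference was -0.87 for Dennd2c and -0.94 for Gm43063. Reads of Gm43063 cannot be told apart from those of unspliced Ampd1 RNA, so its difference is a description. The call of Prkab1 was lost without Nudt21 knockout 2 or wild type 2. That of Ripk2 was lost without Nudt21 knockout 1, knockout 2 or wild type 1 and with both scalings, that of Dpp8 with both scalings, and that of Aldh1b1 with quantile scaling. Whether 1 library stands apart within a group was not tested, since every group holds fewer than 4.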

How the results depend on the processing

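Across 320 values of the 5 genes under alternative settings, 302 kept their direction and call. At 48 h all 105 did, in the Mettl3 knockout 101 of 105 and in the Nudt21 knockout 96 of 110. The reversed ones were Slc15a2 (0.44) and Pmel (0.04) in the Mettl3 knockout without Mettl3 knockout library 3. Without library 1 their values were -1.98 and -0.49. The count of the 5 genes lower in both knockouts was 2, and 1 with median-ratio scaling, quantile scaling or no filter, and 1 to 4 with a library left out (4 without Mettl3 knockout library 1). In the Mettl3 knockout it was 3 and ran from 3 to 5 with a library left out (5 without Mettl3 knockout library 1). In the Nudt21 knockout it was 4, was 2 with no filter and ran from 2 to 4 with a library left out, lowest without any of the 4 Nudt21 libraries. Of all genes, 1507 fell in the Mettl3 knockout, and 346 did with library weights, 274 with the groups compared alone and 2537 with quantile scaling. The 2103 that rose were 748 with weights and 535 with those groups alone. In the Nudt21 knockout 2383 fell, and 1579 did with median-ratio scaling and 962 to 2847 with a library left out. The 1092 that rose were 2077 with weights, 1983 with the groups alone and 374 to 1895 with a library left out. The 452 genes lower in both knockouts were 154 with weights, 296 with no filter, 99 with the groups alone, 288 with a replicate block and 197 to 579 with a library left out. Where no cause is named in the setting itself, the cause was not tested. The replicate block changed no call of the 5 genes. Same-numbered Nudt21 libraries correlated at -0.120 in their deviations and crossed ones at 0.120, and a block with crossed numbers, added after the data were seen, gave 2024 genes that fell and 928 that rose. FPKM does not give library depth, which limits what can be said of levels under 1 FPKM, such as Ampd1 at 48 h.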
